A study of Mus musculus with 16 samples.

Results

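The collagens are the triple-helical proteins of the extracellular matrix, and the 44 mouse genes that encode their chains are described here across heart, kidney, liver, a tissue labelled testes and 4 brain tissues. Members were all protein-coding GENCODE M21 genes whose symbol reads Col, a number, the letter a and a second number. They are 44 of the 40,405 GENCODE genes that received at least 1 transcript of the deposited assembly, or of 58,645 features when gene models without a GENCODE gene are counted. A transcript was given to the gene with which it shared the most exonic bases on the same strand, and 251 transcripts, from 1 to 16 per gene, were given to collagens.

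RNA of 8 tissues was captured with each of 2 probe designs before sequencing, which makes 16 libraries with 1 library per tissue and design. The splice junction design targets known splice sites of the genome, and the lncRNA design targets annotated and predicted long noncoding RNA loci. All tissues came from adult C57BL/6J mice, with no treatment and no mutant allele. The 4 nonbrain tissues are heart, kidney, liver and the tissue labelled testes, and the 4 brain tissues are whole brain, cerebellum, cortex and olfactory bulb. Each nonbrain RNA joined 2 pieces of an organ of a single mouse, and whole brain contains the other brain tissues. Brain RNA was extracted with TRIzol and nonbrain RNA with a rotor homogenizer and RNeasy columns. Libraries were captured in pools of 4 that held either brain or nonbrain tissues, with 16 amplification cycles after capture for brain and 17 for nonbrain. Tissue class, extraction, capture pool and cycle number therefore cannot be told apart. ERCC spike-in mix 1 was added to heart, liver, whole brain and cerebellum, and mix 2 to kidney, testes-labelled tissue, cortex and olfactory bulb.

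Fibrillar collagens assemble into the banded fibrils that carry tension, and collagen I and collagen III dominate most connective tissues. Type IV chains form the network of every basement membrane, as heterotrimers of fixed chain composition, and collagens XV and XVIII are proteoglycans attached to that layer. Fibril-associated collagens decorate fibrils, collagen VI builds beaded microfilaments, and the transmembrane collagens are anchored in the cell surface by a single membrane-spanning segment.

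Values are Cuffnorm fragments, that is, estimated fragments scaled between libraries. Scaled totals without spike-ins were 14,056,700 to 32,464,400 in nonbrain and 9,585,210 to 10,523,200 in brain splice junction libraries. In the lncRNA design they were 17,763,300 to 30,832,600 and 21,657,000 to 24,446,900. Orders and ratios of tissues given below are those of scaled values and can differ per fragment sequenced. The gene models hold whole multiples of the value of 1 fragment, which is between 0.289 and 4.77. Libraries held 14,309,235 to 43,889,289 fragments in the splice junction design and 8,930,243 to 21,113,092 in the lncRNA design, of which 7.81% to 18.6% and 9.02% to 45.6% were spike-ins. Collagens took 0.249% (liver) to 0.559% (testes-labelled tissue) of fragments other than spike-ins in the nonbrain splice junction libraries and 0.152% (whole brain) to 0.293% (olfactory bulb) in the brain libraries.

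The tissue labelled testes did not carry the germ cell markers of its label. Of 8 male germ cell markers, 3 had 0 fragments there in the splice junction design, none of the 5 with at least 10 fragments in any library was highest there, and their summed value was 41.1, against 442 to 1,886 in brain. Of 4 Sertoli cell markers, Rhox5 and Cldn11 had 0 fragments there, while Sox9, which other tissues also express, was highest there, and the list sum of 188 was above the 8.69 to 51.3 of the other nonbrain tissues and the 95.9 to 145 of brain. The 4 Leydig cell markers summed to 101 there, against 893 in liver and 333 to 702 in brain. All 6 keratinocyte markers were highest there, with a summed value of 129,660, against 115 to 253 in brain. It is called testes-labelled tissue throughout.

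The nonbrain libraries also shared markers with each other. In the splice junction design the heart markers Actc1, Tnnt2 and Ckm stood at a median of 0.434% of their heart value in kidney, 0.812% in liver and 0.314% in testes-labelled tissue. The kidney marker Slc34a1 reached 2.12% of its kidney value in heart and 2.43% in liver. The liver markers Alb, Apoa1 and Cps1 reached 1.28% in heart, and 4 keratinocyte markers reached 2.23% of their testes-labelled value in heart, 1.73% in kidney and 3.89% in liver. Markers were used only if no brain library passed 0.1% of their source value. Their low brain values, at most 0.0873%, were thus set by this choice and are no finding. Among listed markers not used, Slc22a6 reached 0.933% of its kidney value in whole brain and Ryr2 12.8% of its heart value in cortex. Given the shares between nonbrain libraries, a nonbrain value can stand near a marker share of another nonbrain tissue. The share is printed beside values of Col4a3, Col4a4, Col17a1 and Col18a1 only. Low nonbrain values of other genes, such as Col19a1, Col9a3 and Col7a1, are given without it. Of 169 collagen values above 0 in nonbrain splice junction libraries, 20 were at least 50% accounted for by these shares summed over the other nonbrain tissues, and 98 under 10%, with a median of 5.05%.

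**Figure D1:**
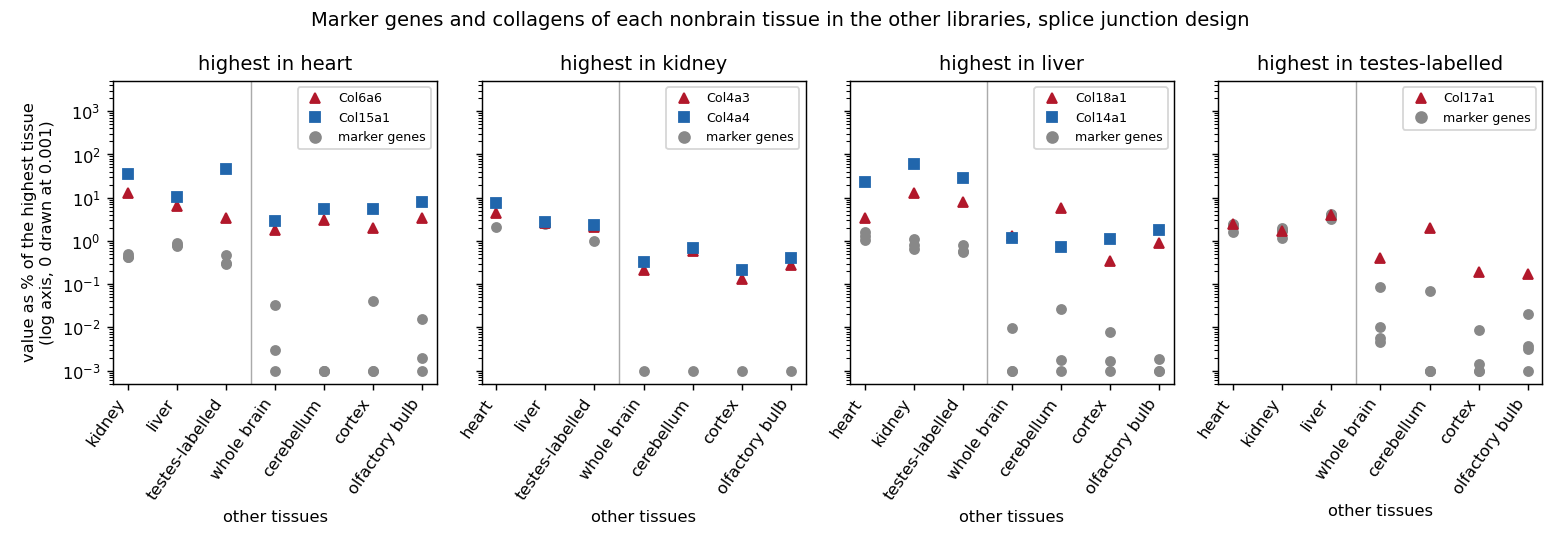
Marker genes of each nonbrain tissue (grey circles) and collagens highest in that tissue (colored symbols) in the other 7 libraries of the splice junction design, as a percentage of the value in the named tissue on a log axis, with 0 drawn at 0.001. Col17a1 lies among the keratinocyte markers in heart, kidney and liver, at 2.40%, 1.66% and 4.07%, whereas Col14a1 lies above the liver markers in every other nonbrain tissue.

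The first comparison asked which collagens differ between nonbrain and brain tissues. Each tissue was represented by its mean log2(value + 1) over both designs, and limma was fitted over all 30,790 features with a mean value of at least 10, with the threshold at a Benjamini-Hochberg adjusted p of 0.05. Because the replicates are different tissues, the p-values measure the spread between tissues. In bulk tissue, fewer cells of a type and less RNA per cell cannot be told apart. All but Col10a1 of the 44 collagens passed the minimum. Of these 43, 9 were higher in nonbrain tissues, where 8.39% of all features and 13.9% of protein-coding genes were called higher. Another 11 were lower, where 22.8% of all features and 19.8% of protein-coding genes were called lower. The share lower among collagens (25.6%) was thus near the background. The share higher (20.9%) was above it, but this difference was not tested and rests on few genes. The median log2 fold change was 0.63 over the collagens, −0.35 over all features and −0.04 over protein-coding genes. Every nonbrain tissue lay above every brain tissue for 10 collagens, against 10.6% of all features, and below for 9, against 22.9%. Scaling moved this split. Scaling to total fragments gave 5 higher and 13 lower collagens, with the median of all features at −0.63, and quantile normalization gave 14 and 8, with that median at 0.19.

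**Figure D2:**
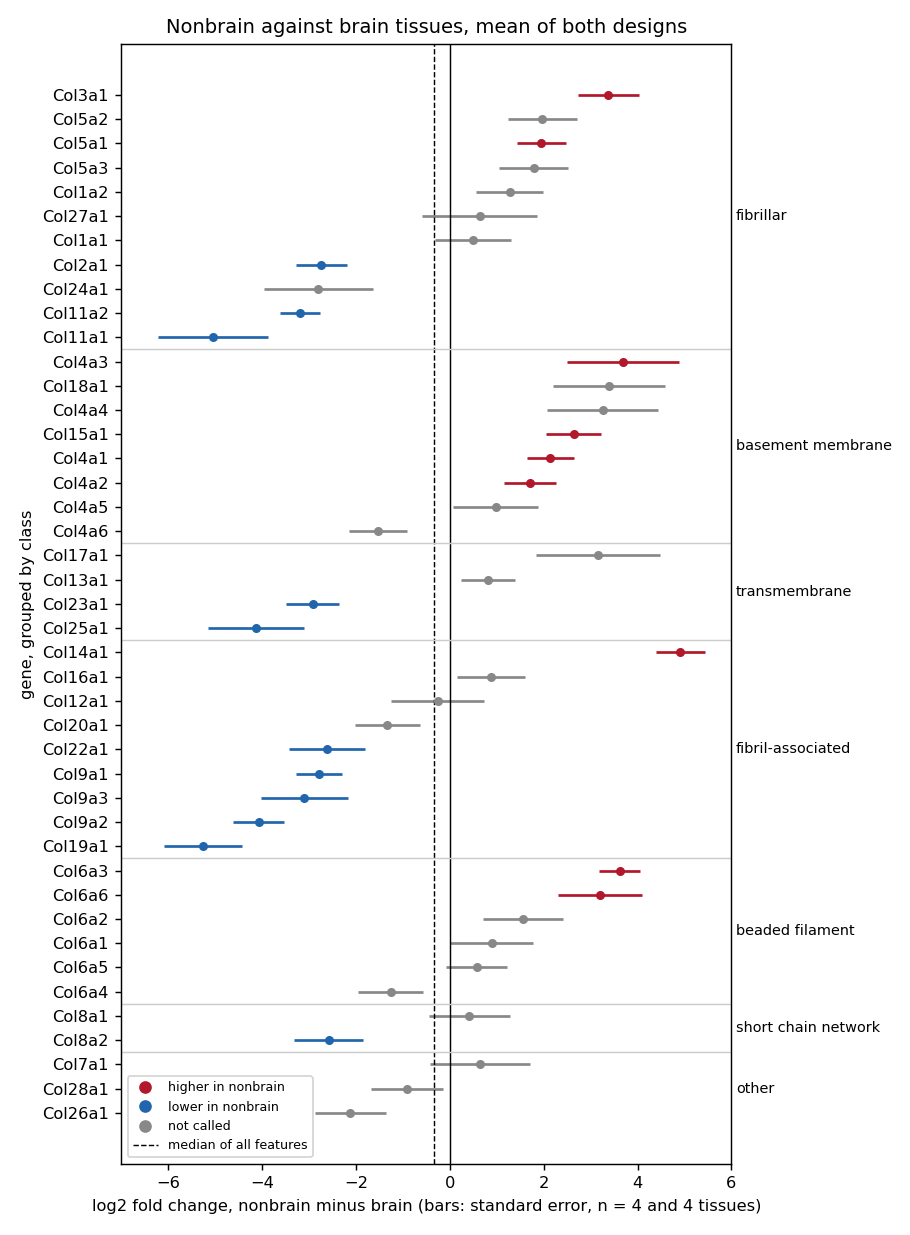
Log2 fold change of each tested collagen, nonbrain minus brain tissues, as the mean of both designs, with the standard error as bars (n = 4 and 4 tissues). Of 8 basement membrane genes, 4 are called higher (red) and none lower, whereas 5 of 9 fibril-associated genes are called lower (blue); the dashed line is the median of all features, −0.35.

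Basement membrane collagens had 4 members higher, none lower and 4 not called, with a median log2 fold change of 2.39. Fibrillar collagens had 2 higher, 3 lower and 6 not called (median 0.63). Transmembrane collagens had none higher and 2 of 4 lower (median −1.06). Among fibril-associated collagens, 1 was higher and 5 of 9 were lower (median −2.62), and among the 6 collagen VI genes 2 were higher and none lower (median 1.23). These counts describe the classes and were not tested between them.

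**Figure D3:**
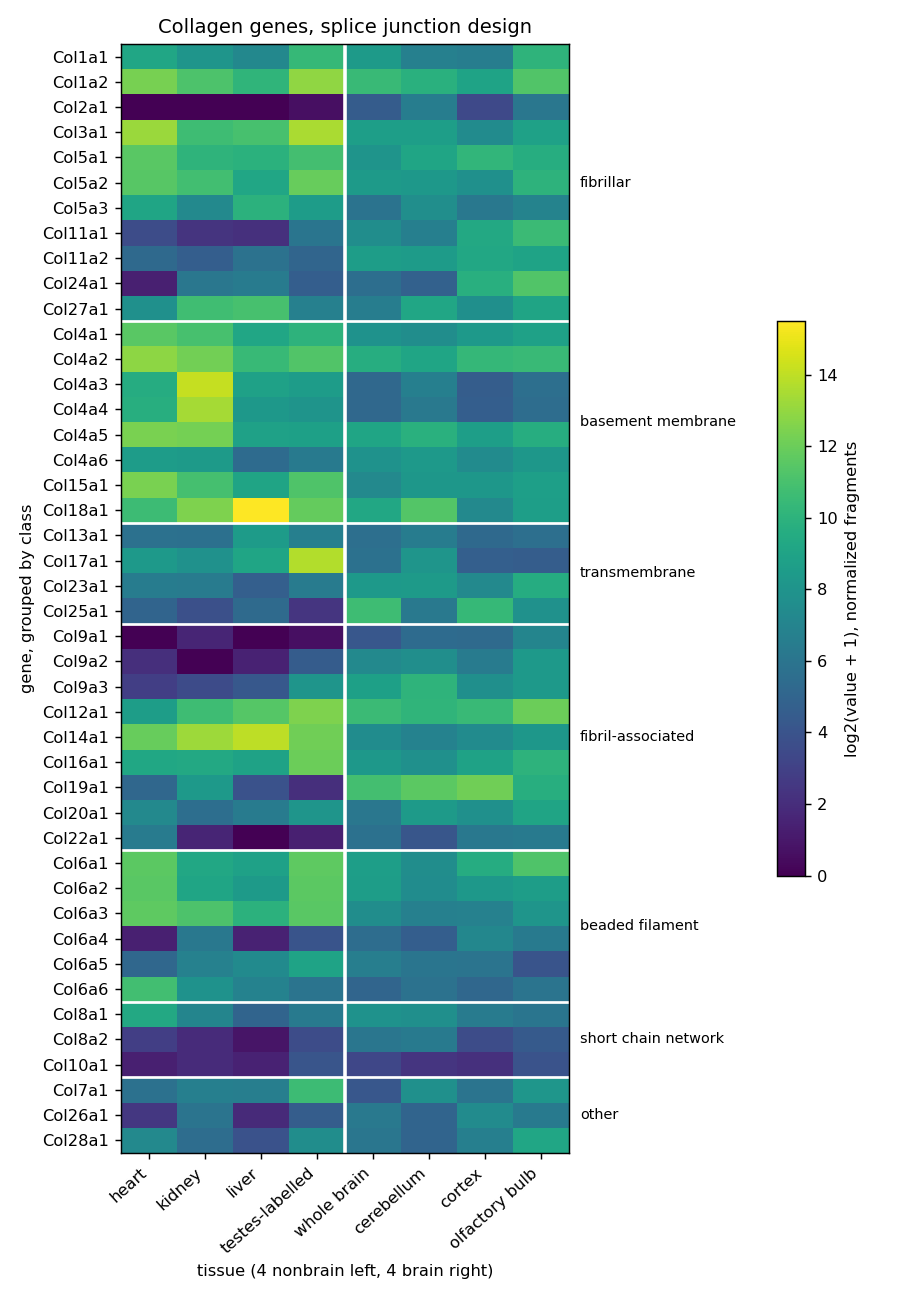
Value of each of the 44 collagen genes in the 8 splice junction libraries, as log2(value + 1), with the nonbrain tissues left of the white line and classes separated by white bars. The 6 brightest cells are Col18a1 and Col14a1 in liver, Col4a3 and Col4a4 in kidney, and Col17a1 and Col3a1 in testes-labelled tissue.

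Among fibrillar collagens, Col3a1 and Col5a1 were higher in nonbrain tissues and the cartilage-type chains Col2a1, Col11a1 and Col11a2 were lower. Col3a1, the single chain of collagen III in stretchable tissues such as vessel walls, had splice junction values of 9,116 in heart, 1,665 in kidney, 2,051 in liver and 11,719 in testes-labelled tissue, against 403 in whole brain, 406 in cerebellum, 177 in cortex and 459 in olfactory bulb. All nonbrain tissues were above all brain tissues, and the lncRNA design gave 97.8 to 603 in nonbrain and 18.2 to 37.2 in brain tissues (log2 fold change 3.38, SE 0.64, adjusted p = 0.00387). Col5a1, a chain of the collagen V that nucleates fibrils, had 3,017 in heart, 1,080 in kidney, 970.1 in liver and 1,863 in testes-labelled tissue, against 255 in whole brain, 559 in cerebellum, 1,177 in cortex and 808 in olfactory bulb. In that design the cortex value lay above those of kidney and liver, while in the lncRNA design nonbrain tissues had 165 to 673 and brain tissues 32.8 to 87.0 (log2 fold change 1.95, SE 0.52, adjusted p = 0.0199). A single transcript of 3,349 nt held 79.5% to 97.5% of the Col5a1 value in the lncRNA design, against 3.37% to 27.4% in the splice junction design. The Col5a1 call was lost in the splice junction design alone (1.36, adjusted p = 0.155), without cerebellum (1.82, adjusted p = 0.0549) and when scaled to total fragments.

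Col11a1, a chain of collagen XI best known from cartilage, had 11.2 in heart, 4.01 in kidney, 3.48 in liver and 62.9 in testes-labelled tissue, against 195 in whole brain, 104 in cerebellum, 642 in cortex and 1,523 in olfactory bulb. The highest nonbrain value was below the lowest brain value, with olfactory bulb highest of all (log2 fold change −5.05, SE 1.17, adjusted p = 0.0101). Col11a2, its partner chain, had 38.5 in heart, 24.1 in kidney, 55.7 in liver and 32.0 in testes-labelled tissue, against 396 in whole brain, 356 in cerebellum, 624 in cortex and 518 in olfactory bulb (log2 fold change −3.19, SE 0.42, adjusted p = 0.00053). All nonbrain values lay below all brain values, and the brain tissues differed little from each other. Col2a1, the main fibrillar chain of cartilage, had 0 in heart, 0 in kidney, 0 in liver and 0.533 in testes-labelled tissue, against 21.4 in whole brain, 93.9 in cerebellum, 9.67 in cortex and 71.3 in olfactory bulb. The single nonbrain fragment came from testes-labelled tissue, so the fitted change (log2 fold change −2.74, SE 0.54, adjusted p = 0.00446) depends on the pseudocount, and the call was lost in the lncRNA design alone (−0.46, adjusted p = 0.534). Of 5 cartilage markers 2 passed the minimum. Acan was lower in nonbrain tissues (log2 fold change −4.47) and Comp was not called (0.39, adjusted p = 0.817), with heart highest at 529. The list summed to 576 in heart and 29.6 to 70.4 in the other nonbrain tissues, against 245 to 1,936 in brain, Matn1 and Matn3 had 0 fragments in heart, liver and testes-labelled tissue, and the part of cartilage cells in these values was not tested.

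The abundant chains of collagen I were not called. Col1a2 had 5,078 in heart, 2,275 in kidney, 1,128 in liver and 7,734 in testes-labelled tissue, against 1,462 in whole brain, 919.7 in cerebellum, 502 in cortex and 2,482 in olfactory bulb (log2 fold change 1.28, adjusted p = 0.206). Col1a1 had 152 to 1,325 in nonbrain and 94.1 to 1,081 in brain tissues (adjusted p = 0.685), and the sign of its change turned when scaled to total fragments. For both chains olfactory bulb was the highest brain tissue and lay above kidney and liver. Col5a2 and Col5a3, the other chains of collagen V, missed the threshold with log2 fold changes of 1.97 (adjusted p = 0.0699) and 1.79 (adjusted p = 0.097). Col24a1 and Col27a1, fibrillar chains with short helices, showed opposite tissue patterns. Col24a1 had 2,478 in olfactory bulb and 878 in cortex and at most 86.1 in any nonbrain tissue (adjusted p = 0.0968), whereas Col27a1 had 2,018 in liver and 1,747 in kidney and at most 569 in brain (adjusted p = 0.732).

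The ratio of Col3a1 to Col1a2 also differed between nonbrain and brain tissues. Per kilobase of exon in the splice junction design, Col3a1 stood at 2.27 times Col1a2 in heart, 0.926 in kidney, 2.30 in liver and 1.92 in testes-labelled tissue, against 0.349 in whole brain, 0.559 in cerebellum, 0.447 in cortex and 0.234 in olfactory bulb. The groups did not overlap. Because probes and the bases they cover differ between genes, such ratios are read across tissues and not as chain stoichiometry.

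Basement membrane collagens were led by the type IV chains. The 6 genes lie as 3 divergent pairs, each pair sharing a promoter region, and the starts of Col4a1 and Col4a2 in GENCODE are 21 nt apart, those of Col4a4 and Col4a3 72 nt apart and those of Col4a6 and Col4a5 1,309 nt apart. The windows of the 2 closest pairs are shown because each contains both starts of a pair whose ratio varied little over the tissues in the splice junction design. They span the RefSeq start of the minus-strand gene, on GRCm38, and are written 5′ to 3′ on the minus strand, with capitals marking 3 motifs on either strand. The motif called GC box reads GGGCGG, the second motif reads CCAAT and gives the CCAAT box its name, and the motif known as the TATA box was searched here with the letters TATAAA.
Col4a1 and Col4a2, chr8:11312777-11313076: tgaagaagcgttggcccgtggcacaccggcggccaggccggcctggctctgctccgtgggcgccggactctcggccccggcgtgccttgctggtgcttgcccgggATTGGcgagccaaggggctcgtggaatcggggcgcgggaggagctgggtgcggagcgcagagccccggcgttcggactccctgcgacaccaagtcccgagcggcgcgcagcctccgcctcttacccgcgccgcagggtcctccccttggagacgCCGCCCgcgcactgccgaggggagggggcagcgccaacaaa
Col4a4 and Col4a3, chr1:82586800-82587099: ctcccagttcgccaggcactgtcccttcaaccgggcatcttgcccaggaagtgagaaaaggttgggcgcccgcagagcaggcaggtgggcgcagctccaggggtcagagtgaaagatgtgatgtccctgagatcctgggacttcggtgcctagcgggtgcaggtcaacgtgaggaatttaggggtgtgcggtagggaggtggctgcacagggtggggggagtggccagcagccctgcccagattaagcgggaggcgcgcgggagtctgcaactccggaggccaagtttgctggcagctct
The Col4a1 window holds the Col4a2 start at position 11312805 and has 1 GC box and 1 CCAAT box, whereas the Col4a4 window holds the Col4a3 start at 82586921 and none of these letters. The RefSeq window of Col4a2 itself, chr8:11312555-11312854, overlaps that of Col4a1 and has 3 GC boxes and 1 CCAAT box. Of the 38 RefSeq promoters found for 35 collagens, 60.5% held a GC box, 34.2% a CCAAT box and 13.2% a TATA box, against 35.7%, 37.4% and 13.6% of all 32,851 mouse promoters of the same length.

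Col4a1 and Col4a2 encode the chains present in nearly every basement membrane, and both were higher in nonbrain tissues. Col4a1 had 2,945 in heart, 2,064 in kidney, 572 in liver and 1,050 in testes-labelled tissue, against 240.5 in whole brain, 192 in cerebellum, 333 in cortex and 474 in olfactory bulb. All nonbrain values were above all brain values in both designs (log2 fold change 2.14, SE 0.50, adjusted p = 0.0101). Per fragment sequenced this order did not hold in the splice junction design. Liver had 657 Col4a1 fragments of 37,313,719 other than spike-ins, a smaller part than in any brain tissue. The lowest brain part was in cerebellum, with 501 of 27,448,376. Col4a2 had 7,443 in heart, 4,721 in kidney, 1,389 in liver and 2,542 in testes-labelled tissue, against 789 in whole brain, 548 in cerebellum, 1,261 in cortex and 1,423 in olfactory bulb, so that liver lay below olfactory bulb in this design (log2 fold change 1.71, SE 0.55, adjusted p = 0.0413). The Col4a2 call was lost in 11 of 21 alternatives, among them 6 of the 8 that left out 1 tissue, all but those without liver or testes-labelled tissue, with the lowest change when scaled to total fragments (1.18, adjusted p = 0.161), where the Col4a1 call also missed the threshold (adjusted p = 0.0537). Across the 8 tissues of the splice junction design the ratio of Col4a1 to Col4a2 per kilobase ranged from 0.234 to 0.388 (SD 0.25 on the log2 scale, n = 8). It ranged more widely in the lncRNA design, from 0.581 to 1.53 (SD 0.46, n = 8).

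Col4a3 and Col4a4 form, with Col4a5, the network of the glomerular basement membrane, and kidney stood far above every other tissue. Col4a3 had 788 in heart, 17,654 in kidney, 460.3 in liver and 371 in testes-labelled tissue, against 37.0 in whole brain, 104 in cerebellum, 23.1 in cortex and 50.2 in olfactory bulb. Kidney was 22.4 times the next tissue, and the share at which the kidney marker appeared in the other libraries would give 47.5% of the Col4a3 value in heart, 93.3% in liver and 46.9% in testes-labelled tissue. The fitted change (log2 fold change 3.69, SE 1.19, adjusted p = 0.0418) passed the threshold, but was lost in 10 of 21 alternatives. Among these were the lncRNA design alone (2.65, adjusted p = 0.208), the subtraction of all marker shares (2.72, adjusted p = 0.241) and the fits without heart, whole brain, cerebellum, cortex or olfactory bulb (adjusted p = 0.059 to 0.103). Col4a4 had 857 in heart, 11,074 in kidney, 307 in liver and 261 in testes-labelled tissue, against 36.7 in whole brain, 75.9 in cerebellum, 23.4 in cortex and 44.9 in olfactory bulb. Kidney was 12.9 times the next tissue (log2 fold change 3.26, adjusted p = 0.0639), and the kidney share would give 87.7% of the liver value. The ratio of Col4a3 to Col4a4 per kilobase was 0.979 to 1.70 over all 8 tissues of the splice junction design. That of Col4a3 to Col4a1 in the same design was 6.41 in kidney, 0.200 to 0.603 in the other nonbrain tissues and 0.0519 to 0.405 in brain.

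Col4a5 and Col4a6, the X-linked pair, kept no fixed ratio. Col4a5 had 5,377 in heart, 4,931 in kidney, 459 in liver and 456 in testes-labelled tissue, against 555 in whole brain, 907 in cerebellum, 405 in cortex and 814 in olfactory bulb (adjusted p = 0.455), and Col4a6 had 377 in heart, 345 in kidney, 40.9 in liver and 82.6 in testes-labelled tissue, against 237 in whole brain, 330.5 in cerebellum, 179.6 in cortex and 297 in olfactory bulb (log2 fold change −1.54, adjusted p = 0.091). Both chains were highest in heart and kidney in the splice junction design. Their ratio per kilobase was 16.9 in heart, 17.0 in kidney, 13.3 in liver and 6.55 in testes-labelled tissue, against 2.67 to 3.26 in the 4 brain tissues.

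**Figure D4:**
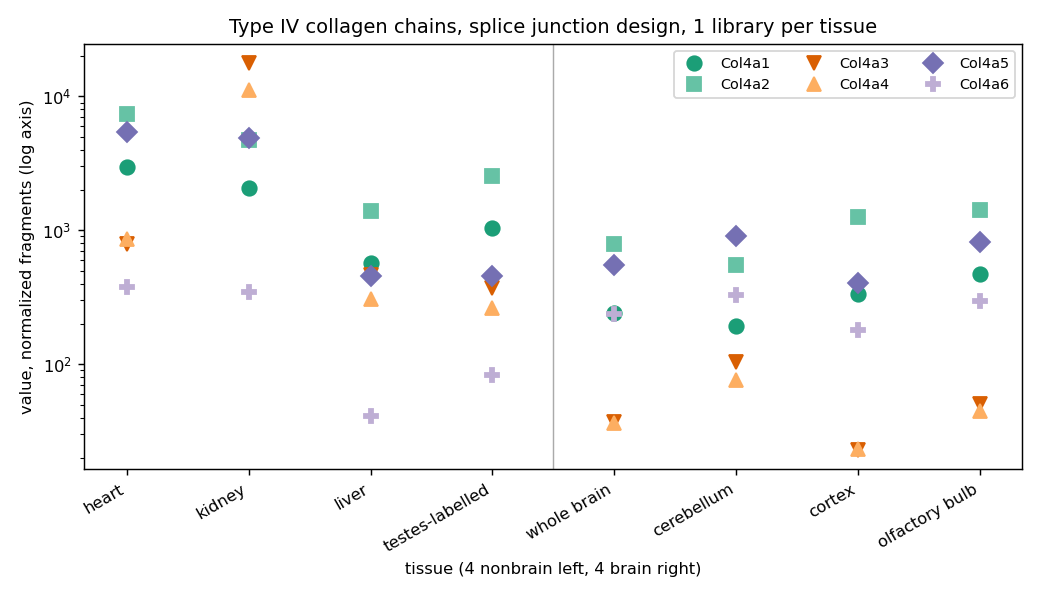
Values of the 6 type IV collagen chains in each splice junction library on a log axis, with nonbrain tissues on the left. Col4a3 and Col4a4 (17,654 and 11,074) stand above the other chains in kidney, below them in every brain library and above Col4a6 in every nonbrain library, while Col4a1 and Col4a2 run in parallel over the 8 tissues.

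Col15a1 and Col18a1 are the multiplexins, whose C-terminal fragments restin and endostatin are released from the basement membrane zone. Col15a1 had 5,314 in heart, 1,929 in kidney, 539 in liver and 2,438 in testes-labelled tissue, against 157 in whole brain, 293 in cerebellum, 297 in cortex and 433 in olfactory bulb. Nonbrain values were above brain values in both designs, with heart highest in each (log2 fold change 2.64, SE 0.59, adjusted p = 0.0081). Per fragment sequenced the groups overlapped in the splice junction design. The 619 Col15a1 fragments of 37,313,719 in liver were a smaller part than the 764 of 27,448,376 in cerebellum. In liver 49.4% of the Col15a1 value came from transcripts that start at position 47242361 of chromosome 4, a start with an estimate of at most 6.0e-07% elsewhere in that design.

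Col18a1 had 1,561 in heart, 5,808 in kidney, 46,303 in liver and 3,732 in testes-labelled tissue, against 615 in whole brain, 2,666 in cerebellum, 159 in cortex and 419 in olfactory bulb. Liver was 7.97 times kidney, and in the lncRNA design liver also led with 1,408, against 148 in testes-labelled tissue and 117 in kidney. Cerebellum lay above heart, so the groups overlapped and the change was not called (log2 fold change 3.40, adjusted p = 0.0576). The call appeared when heart or cerebellum was left out (adjusted p = 0.0199 and 0.0329) and under quantile normalization. The liver share would give 38.0% of the heart value, and all marker shares together 51.3%.

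The tissues used different starts of Col18a1. RefSeq gives a promoter at the upstream start and another inside the gene, and both windows are shown because the liver transcripts began near the internal one. Both are written on the minus strand of GRCm38, with capitals as above.
Col18a1 upstream start, chr10:77166481-77166780: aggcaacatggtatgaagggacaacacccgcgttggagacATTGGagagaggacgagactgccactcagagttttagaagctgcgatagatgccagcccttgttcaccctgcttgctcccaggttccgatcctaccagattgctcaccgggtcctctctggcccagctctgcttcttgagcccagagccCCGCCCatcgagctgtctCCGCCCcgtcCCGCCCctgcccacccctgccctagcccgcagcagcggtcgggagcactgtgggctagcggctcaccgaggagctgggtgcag
Col18a1 internal start, chr10:77113656-77113955: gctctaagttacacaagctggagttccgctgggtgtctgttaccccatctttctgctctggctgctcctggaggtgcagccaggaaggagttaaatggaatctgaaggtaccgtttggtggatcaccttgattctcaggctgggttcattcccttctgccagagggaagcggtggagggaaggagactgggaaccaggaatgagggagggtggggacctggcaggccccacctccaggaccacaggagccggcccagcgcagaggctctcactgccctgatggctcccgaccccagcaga
The upstream window holds 3 GC boxes and 1 CCAAT box, and the internal window holds none of the 3 motifs. In the assembly, transcripts from the upstream start begin at 77166548, and those from the internal start at 77113946 and 77113959. The position 77113946 lies at the upstream edge of the second window, and 77113959 lies just outside it. That window therefore holds little sequence upstream of these starts, and its lack of motifs does not describe that sequence. In liver the internal start had a splice junction value of 19,610 and the upstream start 30.2, so the internal start made up 99.8% of both, and in the lncRNA design it made up 99.9%. In the splice junction design the internal start made up 64.5% in heart, 66.5% in testes-labelled tissue and 30.8% in kidney. Brain tissues had 29.0% in whole brain, 4.10% in cerebellum, 25.7% in cortex and 17.2% in olfactory bulb. The lncRNA design gave 25.1% in testes-labelled tissue and 9.31% in kidney, so the larger start of testes-labelled tissue differed between designs. It gave at most 7.4e-05% in brain, and neither start held a whole fragment in heart. Marker shares were not applied to single starts. Cerebellum had the most upstream transcript of the brain tissues, at 1,041 in the splice junction design. Another form that starts at 77089428 could not be assigned to either start. In the splice junction design it held between 57.6% (liver) and 69.3% (kidney) of the gene's value over the 8 tissues. Isoform values are Cufflinks estimates that divide shared fragments, so they carry more uncertainty than the gene sums.

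**Figure D5:**
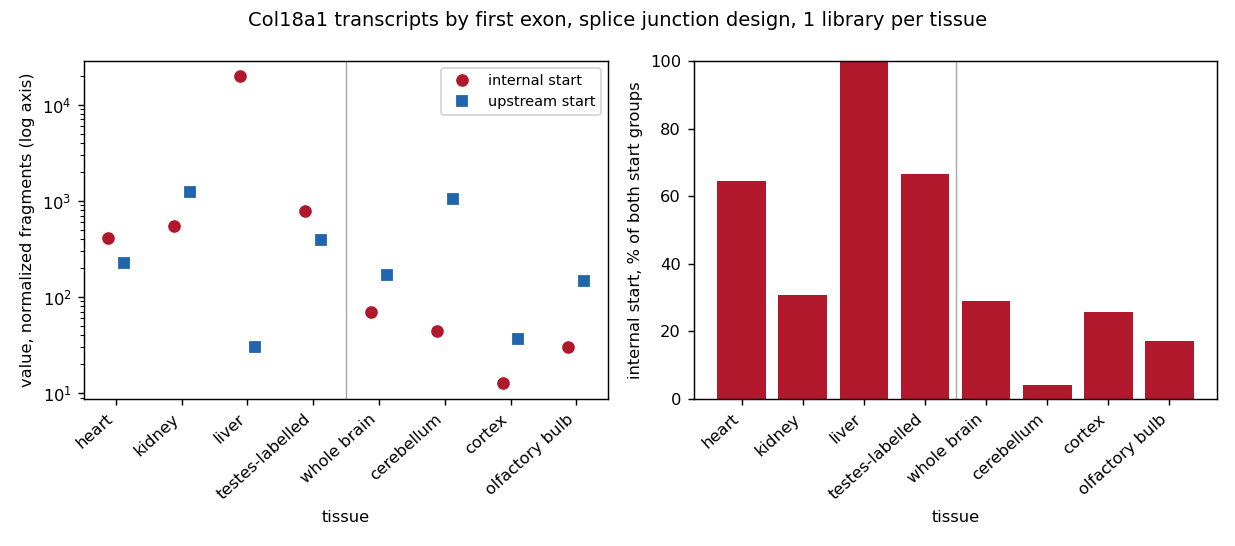
Left, value of Col18a1 transcripts from the internal start (red circles) and from the upstream start (blue squares) in each splice junction library, on a log axis. Right, the internal start as a percentage of both, from 4.10% in cerebellum to 99.8% in liver.

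Transmembrane collagens had no member called higher in nonbrain tissues and 2 called lower. Col25a1, the collagen XXV chain found in neurons and in amyloid plaques, had 30.5 in heart, 12.7 in kidney, 40.0 in liver and 4.27 in testes-labelled tissue, against 1,633 in whole brain, 76.3 in cerebellum, 1,331 in cortex and 225 in olfactory bulb. Whole brain and cortex stood above the other brain tissues, and every nonbrain value was under every brain value in the splice junction design (log2 fold change −4.13, SE 1.02, adjusted p = 0.014), although the lncRNA design alone missed the threshold (adjusted p = 0.0566). Col23a1, another single-pass chain, had 89.8 in heart, 84.9 in kidney, 24.4 in liver and 85.3 in testes-labelled tissue, against 321 in whole brain, 354 in cerebellum, 154 in cortex and 768 in olfactory bulb (log2 fold change −2.93, SE 0.56, adjusted p = 0.00392). Its groups did not overlap in either design, with olfactory bulb highest.

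Col17a1, the hemidesmosome collagen that anchors basal keratinocytes, had 324 in heart, 224 in kidney, 548 in liver and 13,478 in testes-labelled tissue, against 53.5 in whole brain, 274 in cerebellum, 25.3 in cortex and 23.1 in olfactory bulb. Testes-labelled tissue was 24.6 times the next tissue, where the keratinocyte markers were also highest. In heart, kidney and liver the Col17a1 value was close to what the keratinocyte marker share gives (92.6% of it in heart, 104% in kidney and 95.7% in liver), and the change, not called (log2 fold change 3.16, adjusted p = 0.102), was 0.87 once all marker shares were subtracted (adjusted p = 0.78). In brain libraries the Cufflinks estimates gave much of the value to another start, at position 47668887 of chromosome 19 inside the gene. It held 60.7% of the Col17a1 value in whole brain, 95.5% in cerebellum, 52.1% in cortex and 78.9% in olfactory bulb, and at most 1.1e-14% in nonbrain tissues. These brain shares divide only 185, 714, 68 and 57 fragments, in that order. In the lncRNA design cerebellum alone of the brain tissues had Col17a1 fragments, 5 of them. Col13a1, found at neuromuscular and cell adhesion sites, was highest in liver at 362, with 38.7 to 100.2 elsewhere (adjusted p = 0.32).

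The fibril-associated class held the strongest change in each direction. Col14a1, which binds the surface of collagen I fibrils, had 3,795 in heart, 9,742 in kidney, 16,109 in liver and 4,602 in testes-labelled tissue, against 185 in whole brain, 116 in cerebellum, 179.6 in cortex and 289 in olfactory bulb. Every nonbrain value stood above every brain value in both designs (log2 fold change 4.91, SE 0.52, adjusted p = 0.000177), and the change after subtraction of all marker shares was 4.85, adjusted p = 0.000321. Col19a1, a chain expressed by subsets of neurons, had 35.3 in heart, 320.2 in kidney, 13.9 in liver and 3.20 in testes-labelled tissue, against 1,853 in whole brain, 3,150 in cerebellum, 4,508 in cortex and 829 in olfactory bulb. Cortex was highest and every brain tissue lay above every nonbrain tissue (log2 fold change −5.27, SE 0.83, adjusted p = 0.00143). Col9a1, Col9a2 and Col9a3, which together form collagen IX of cartilage fibrils, were all lower in nonbrain tissues. Col9a2 had 3.21 in heart, 0 in kidney, 1.74 in liver and 21.3 in testes-labelled tissue, against 159 in whole brain, 205 in cerebellum, 85.9 in cortex and 332 in olfactory bulb (log2 fold change −4.08, SE 0.54, adjusted p = 0.000567). Col9a3 had 6.42 in heart, 10.7 in kidney, 18.3 in liver and 269.8 in testes-labelled tissue, against 455 in whole brain, 1,102 in cerebellum, 212 in cortex and 336 in olfactory bulb (log2 fold change −3.10, SE 0.92, adjusted p = 0.031), and its call was lost in each design alone (adjusted p = 0.0615 and 0.127) and in 6 of the 8 fits that left out a tissue, all but those without testes-labelled tissue or cortex (adjusted p = 0.0506 to 0.0838).

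The remaining members of the class were Col9a1 (log2 fold change −2.79, adjusted p = 0.00242) and Col22a1 (log2 fold change −2.62, adjusted p = 0.0362), both lower, and Col12a1, Col16a1 and Col20a1, which were not called. The Col9a1 call was lost in the lncRNA design alone (−0.63, adjusted p = 0.318). Col22a1 had 86.6 in heart, 2.01 in kidney, 0 in liver and 1.60 in testes-labelled tissue, against 54.1 in whole brain, 16.5 in cerebellum, 72.5 in cortex and 79.4 in olfactory bulb, so that heart was the highest of all tissues and the groups overlapped. Its call was lost in 11 of 21 alternatives, among them each design alone (adjusted p = 0.168 and 0.105) and 6 of the 8 fits that left out a tissue, all but those without heart or cerebellum. Col12a1, a tension-bearing fibril partner, had 396 in heart, 1,644 in kidney, 2,748 in liver and 5,845 in testes-labelled tissue, against 1,502 in whole brain, 1,151 in cerebellum, 1,457 in cortex and 4,116 in olfactory bulb, and its sign turned with the scaling. For Col16a1 testes-labelled tissue had 4,090, against at most 667 in the other nonbrain tissues and 1,034 in olfactory bulb.

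Collagen VI forms beaded filaments around cells, and its chain Col6a3 had 3,157 in heart, 2,308 in kidney, 1,008 in liver and 2,998 in testes-labelled tissue, against 191 in whole brain, 105 in cerebellum, 113 in cortex and 271 in olfactory bulb. In scaled values the groups were far apart in both designs (log2 fold change 3.62, SE 0.44, adjusted p = 0.000357). Col6a6, a later-described alternative to Col6a3 in the filament, had 1,821 in heart, 234 in kidney, 114 in liver and 60.2 in testes-labelled tissue, against 32.1 in whole brain, 55.2 in cerebellum, 35.7 in cortex and 61.9 in olfactory bulb (log2 fold change 3.20, SE 0.90, adjusted p = 0.0241). Heart was 7.78 times kidney, the testes-labelled value lay just below that of olfactory bulb, and the call was lost in the splice junction design alone (2.36, adjusted p = 0.168), with a pseudocount of 10 (adjusted p = 0.0575) and without whole brain or cortex (adjusted p = 0.0669 and 0.0675). Col6a1 and Col6a2, the other chains of the common heterotrimer, were not called (adjusted p = 0.481 and 0.195). Their ratio per kilobase was 1.96 to 2.56 in 6 tissues but 4.80 in cortex and 11.2 in olfactory bulb, where Col6a1 had 2,366 and Col6a2 401. Col6a5 was highest in testes-labelled tissue at 503 and Col6a4 in cortex at 141, neither called.

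In the short chain class, Col8a2, a chain of the hexagonal lattice of endothelial and corneal membranes, was lower in nonbrain tissues (0.870 to 11.2, against 11.2 to 80.5; log2 fold change −2.58, SE 0.73, adjusted p = 0.0251), with testes-labelled tissue just above cortex. Its call was lost in 8 of 21 alternatives, among them each design alone (adjusted p = 0.0667 and 0.0662), quantile normalization (adjusted p = 0.113) and the fits without kidney, liver, whole brain or cerebellum. Col10a1, the collagen of hypertrophic cartilage, was at or below 16.0 in every library. Among the rest, Col7a1, the anchoring fibril collagen of skin, had 1,556 in testes-labelled tissue, which was 5.50 times the next tissue, olfactory bulb, and at most 104 in the other nonbrain tissues (adjusted p = 0.687). Col26a1 and Col28a1 were highest in cortex (180.0) and olfactory bulb (582), without a call.

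The make-up of the collagen fragments differed by tissue in the splice junction design. Basement membrane genes took 65.0% in kidney, 62.0% in liver, 38.8% in heart and 13.9% in testes-labelled tissue, against 14.1% (olfactory bulb) to 29.9% (cerebellum) in brain. In the lncRNA design, from 58 to 611 fragments a tissue, they took 25.9% in kidney, 67.3% in liver, 16.3% in heart and 14.3% in testes-labelled tissue, against 3.82% to 18.8% in brain. Fibril-associated genes took 7.98% in heart to 24.1% in liver, against 27.3% to 40.4% in the brain tissues. Fibrillar genes took 9.96% (liver) to 34.5% (testes-labelled tissue), against 21.3% (cerebellum) to 39.6% (olfactory bulb), so these ranges overlapped. Transmembrane genes took at most 1.21% in heart, kidney and liver and 17.4% in testes-labelled tissue, against 3.80% to 14.1% in brain. Counting error alone was small, since the 95% Wilson interval of the kidney basement membrane share was 64.7% to 65.2%. Weighting per kilobase of exon moved 47 splice junction class shares out of their Wilson interval, by at most 7.30 percentage points, and left 9 within it.

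Single genes carried much of these shares. Col18a1 made up 57.3% of all collagen fragments in liver and Col14a1 19.9%. In kidney Col4a3 made up 23.6% and Col4a4 14.8%, in testes-labelled tissue Col17a1 17.1%, and in heart Col3a1 14.3%. Col19a1 led in whole brain (12.7%), cerebellum (18.4%) and cortex (25.1%), and Col12a1 in olfactory bulb (14.7%). The highest tissue was the same in both designs for 31 of the 44 genes.

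The second comparison, of the capture designs within each tissue, asked how strongly each design recovered collagen transcripts. In the splice junction minus lncRNA contrast, 41 of the 43 tested collagens were higher and 1 was lower, where 34.6% of all features and 65.8% of protein-coding genes were called higher and 60.1% and 24.9% lower (limma with tissue as a factor, n = 8 tissues). The median log2 fold change was 4.94 over collagens, −2.62 over all features and 2.79 over protein-coding genes. Basement membrane collagens had the highest class median, at 5.77, and fibrillar collagens 3.95. The splice junction design left out exon regions that were most abundant in brain RNA, as the study describes its probes. The same probes served all tissues. How this choice affects levels between genes, or between nonbrain and brain tissues, was not tested.

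The exceptions were Col8a1 and Col11a1. Col8a1, partner of Col8a2 in the lattice, had 30.5 to 654 in nonbrain and 64.4 to 238 in brain splice junction libraries, and 77.2 to 1,654 and 146 to 258 in the lncRNA libraries (log2 fold change −1.02, adjusted p = 0.0436). A single unspliced transcript of 3,876 nt held 80.3% to 100% of the lncRNA value of the gene and at most 1.03% of its splice junction value. With spliced transcripts only, the Col8a1 change was 4.22, and no collagen was then lower. The Col8a1 call was also lost when scaled to total fragments (−0.30, adjusted p = 0.603) and without heart, kidney, liver, cortex or olfactory bulb (adjusted p = 0.0675 to 0.0893). Col11a1 had 3.48 to 62.9 in nonbrain and 104 to 1,523 in brain splice junction libraries, and 0 to 131 and 135 to 2,160 in the lncRNA libraries (log2 fold change −0.69, adjusted p = 0.167). Its splice junction value was the lower in every tissue but liver, and the difference was called with a pseudocount of 10 (adjusted p = 0.0175) and without liver (−1.10, adjusted p = 0.00926).

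Estimates by start site differed between designs for some genes. Col1a2 transcripts from position 4504814 of chromosome 6 held 97.9% to 99.97% of the splice junction value in nonbrain tissues, against 28.7% in whole brain, 90.4% in cerebellum, 0.0365% in cortex and 4.18% in olfactory bulb. In the lncRNA design the same start held 49.97% in heart, 50.5% in kidney, 50.6% in liver and 97.1% in testes-labelled tissue, against 93.7% in whole brain, 50.1% in cerebellum, 49.5% in cortex and 82.5% in olfactory bulb, from 11 to 218 fragments a tissue. The low shares of whole brain, cortex and olfactory bulb in the splice junction design were not seen there.

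Genes that act on collagens were read from lists of known function. Of 18 genes for chain modification and folding in the endoplasmic reticulum, 3 were higher in nonbrain tissues and 1 lower. The collagen chaperone Serpinh1 had a log2 fold change of 1.82, the prolyl 3-hydroxylase partner Crtap 2.33 and P4hb, the common subunit of prolyl 4-hydroxylases, 2.62, while P4ha3, a catalytic subunit, was lower at −2.23. Of 13 genes for procollagen processing and crosslinking, 3 were higher and 2 lower. The lysyl oxidases Loxl2 and Loxl4 changed by 2.28 and 1.89 and the procollagen N-proteinase Adamts14 by 1.99, against −4.25 for Adamts3, which cleaves the propeptide of collagen II, and −3.59 for Tll1. Among 9 tested receptors 3 integrin subunits were higher (Itgb1 2.46, Itga1 2.36 and Itga2 1.51) and none lower. None of 7 collagen-cleaving proteases was called.

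The structural partners of collagens in the matrix were listed as well. Of 15 laminins and other basement membrane genes, 6 were higher and none lower, with the proteoglycan Hspg2 at 3.04, Lamb3 at 2.63 and the linker Nid2 at 2.32 and a list median of 1.57. Of 4 tested small proteoglycans that bind fibrils, Bgn (3.02) and Dcn (2.78) were higher. These lists were chosen with results of the data known and support no direction, and 8.39% and 22.8% of all features were higher and lower.

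Some markers of matrix-producing and vascular cells were also higher in nonbrain tissues. Among all features 8.39% were called higher, and among protein-coding genes 13.9%. The short marker lists were not tested against these shares. Of 6 fibroblast markers 3 were higher in nonbrain tissues and none lower, and their summed splice junction value was 56,726 in heart, 4,477 in kidney, 11,571 in liver and 22,707 in testes-labelled tissue, against 3,049 to 4,593 in brain. Of 5 endothelial markers 1 was higher, with sums of 4,724 (testes-labelled tissue) to 48,141 (heart), against 4,376 to 5,018 in brain. Of 5 mural cell markers 2 were higher, with sums of 1,807 (liver) to 19,292 (heart), against 1,985 to 2,997. No marker of these lists was at 0 fragments in testes-labelled tissue. The part of these cell types in the collagen values was not tested.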

How the data were processed

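Adult C57BL/6J tissues were profiled by CaptureSeq, in which probes enrich chosen transcripts before sequencing. Per the labels and the study's methods, the authors mapped stranded reads to GRCm38 with TopHat2, assembled transcripts with Cufflinks 2.2.1 guided by GENCODE M4, and deposited normalized fragments per transcript from Cuffnorm 2.2.1, which are a signal and not counts. Sums per gene model were whole multiples of 1 step per library (191227 of 191227 low sums, 100%, within 0.1), so fragments could be recovered for shares and for 1 alternative.

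Transcripts were assigned to GENCODE M21 genes by largest same-strand exonic overlap (bedtools 2.31.1) and summed. The deposited signal was fitted as log2(value + 1), for features with a mean of at least 10 over 16 libraries. The fit used limma 3.58.1 in R 4.3.3, two-sided, Benjamini-Hochberg adjusted over all features. A check of the code on simulated data gave all tissues of a class the same mean, so it did not cover the spread between tissues. Tissues were the units: 4 nonbrain and 4 brain, with both designs averaged, or 8 tissues as a factor for the designs. Every sample is its group's only biological replicate in the labels. Tables and plots used Python 3.11.15, NumPy 2.4.6, pandas 2.3.3, SciPy 1.17.1 and matplotlib 3.10.9.

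The genes and lists were chosen with earlier results of these data known. Full statistics were given for every called fibrillar, basement membrane and transmembrane gene and for the 3 largest called changes per direction in the other classes. Promoters are the RefSeq table's, on GRCm38. Depth limits low values: wherever 0 fragments were seen a lower level was not detectable, and intervals cover counting error only. Alternatives were the designs singly, other pseudocounts, no filter, 3 scalings, stricter transcript assignment, spliced transcripts only, subtraction of marker shares, voom weights on recovered fragments, a trended prior and each tissue left out.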

Additional observations from a re-analysis of the deposited data

Results flagged for a closer look

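Dixon's ratio was computed for each tested collagen in each group of 4 tissues, on the mean log2(value + 1) of both designs, and 5 of 86 groups passed the 95% critical value, about the 1 in 20 that chance gives. Col16a1 stood apart in testes-labelled tissue at 9.24, with the nearest nonbrain tissue at 6.59. Col2a1 was 0.31 in testes-labelled tissue and 0 in the other nonbrain tissues, which rests on 1 fragment. Col5a2 was lowest in liver at 7.33, with the nearest at 9.49, and highest in olfactory bulb at 8.85, with the nearest brain tissue at 6.76. Col12a1 was highest in olfactory bulb at 8.80, with the nearest brain tissue at 7.39.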

How the results depend on the processing

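The comparison of nonbrain with brain tissues was repeated under 21 alternatives. Of the 20 collagens called, all 20 kept their direction in each and 9 were called in each, namely Col3a1, Col11a1, Col11a2, Col15a1, Col23a1, Col14a1, Col19a1, Col9a2 and Col6a3, while 9 uncalled collagens were called in at least 1. Of all features, 3825 were lower in the splice junction design alone, and 1521 were higher in the lncRNA design alone, 1708 when scaled to total fragments, 5034 under quantile normalization and 1507 once the marker shares were subtracted, against 7029 lower and 2584 higher. Collagens lower numbered 5 in the lncRNA design alone, and collagens higher 5 when scaled to total fragments and 14 under quantile normalization. With voom weights, an alternative chosen after seeing the data, as were the spliced-only fit and the subtraction, 9 were higher and 10 lower. Leaving out 1 tissue at a time gave 6 to 12 collagens higher and 8 to 11 lower, and 1457 to 2913 and 5511 to 7089 features. The subtraction ended the calls of Col4a2 (log2 fold change 1.64) and Col4a3 (2.72).

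Signs turned only for uncalled genes. Col12a1 was 0.0037 in the splice junction design alone, 0.032 with a pseudocount of 10, 0.17 under quantile normalization and 0.091 with voom weights, and between −0.98 and 0.77 with 1 tissue left out. Col8a1 was −0.085 in the splice junction design alone, −0.11 when scaled to total fragments and −0.29 to 1.10 with 1 tissue left out. Col6a4 was 0.11 and Col6a5 −0.30 in the lncRNA design alone. Col1a1 was −0.028 when scaled to total fragments and −0.075 to 1.05 with 1 tissue left out, lowest without testes-labelled tissue. Col27a1 was −0.030 without kidney, −0.15 without liver, −0.085 without whole brain and as high as 1.36 without heart, and Col7a1 −0.36 without testes-labelled tissue, −0.010 without whole brain and as high as 1.25 without heart.

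Between designs, collagens lower numbered 2 with a pseudocount of 10 and 0 when scaled to total fragments, under quantile normalization and with spliced transcripts only, and 41 higher and 0 to 1 lower with 1 tissue left out, among 10457 to 10548 and 17884 to 18538 features. Col8a1 was 0.071 and Col11a1 0.91 under quantile normalization, and Col8a1 4.22 with spliced transcripts only. Causes of these changes were not tested, except that the spliced-only fit drops the unspliced Col8a1 transcript. No paired analysis was possible because each tissue has a single biological replicate, so nothing pairs a nonbrain with a brain tissue. The designs were compared within tissue throughout. With 1 library per tissue, no error of a single tissue's value can be given.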

Other observations

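Inside 6 collagen genes the assembly held 7 gene models with no GENCODE gene, 6 of them of a single exon and 5 on the strand of the host gene. Opposite to Col4a3, at chr1:82711213-82711745 on GRCm38, a model had a lncRNA design value of 727 in kidney, 33.4 in heart, 56.6 in liver and 19.4 in testes-labelled tissue, against 0 in whole brain, 6.56 in cerebellum, 2.81 in cortex and 11.1 in olfactory bulb. Kidney was thus highest for this model as for Col4a3. A same-strand model in Col4a2 (chr8:11374174-11375328) had 510.3 in kidney, 157 in heart, 92.6 in liver and 47.9 in testes-labelled tissue, against 17.6 in whole brain, 10.5 in cerebellum, 88.4 in cortex and 123 in olfactory bulb, so the groups overlapped. A same-strand model in Col11a1 (chr3:114136739-114137019) had at most 2.28 in nonbrain tissues, against 174 in olfactory bulb and 91.2 in cortex. For same-strand models, unspliced RNA of the host gene was not told apart from a separate transcript.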
